A study of Rattus norvegicus with 31 samples.

Results

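Ppbp, Pf4, Gp1bb, Gp1ba, Gp9, Gp6, Itgb3, Itga2b, Vwf and Treml1 are genes that megakaryocytes, the parent cells of platelets, transcribe at high levels. They were followed here in rat peripheral blood mononuclear cells (PBMC), the fraction of blood that holds lymphocytes and monocytes. The members were taken by gene name from the array's annotation. Of the 10 listed genes, 9 had a probe, with 11 probes among the 41012 of the array. Gp6, the collagen receptor of platelets, was not analysed here. All 9 passed the filter on dim probes and were among the 22066 features tested, and the array's annotation named the Itga2b probe by a transcript, with the symbol in its description.

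Platelets carry no nucleus and keep the RNA that the megakaryocyte packed into them, so their genes can be read in any blood fraction that holds platelets. The GPIb-IX complex on their surface binds von Willebrand factor on an injured vessel wall, integrin alpha-IIb beta-3 binds fibrinogen and links platelets to each other, and alpha granules release chemokines and adhesive proteins. PBMC preparations usually retain some platelets, and the labels name no step that removed them or counted them. In a mixed sample, fewer platelets and less RNA per platelet cannot be told apart.

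The samples were offspring of 16 mated rats. WT (7 samples) is the titles' name for offspring of control dams. CR (11 samples) came from dams fed 20% less than control dams on days 1 to 12 of pregnancy and were suckled without supplement. CR-L (13 samples) came from equally restricted dams and were given leptin, a hormone of fat tissue also found in milk, during lactation up to postnatal day 21. The daily leptin dose rose from 1.0 to 43.8 ng, 5 times the amount taken with milk. All offspring then had free access to chow up to blood collection at 4 months. The labels give neither litter nor sex per sample, and at most 16 litters gave the 31 samples. Littermates among them would make the p-values smaller than they should be, since the tests treat each sample as independent. Each sample was hybridised in red on 1 Agilent array against the same reference pool in green, and every value below is a log2 ratio of sample over pool unless an intensity is named. A value of -1 is thus a level at 0.5 of the pool. Arrays are called by group and replicate number, and their number limits the precision.

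WT 6 stood apart in signal, with a median red intensity of 235 and 83.6% of red spots well above background, where the other 30 arrays had 69.8 to 93.9 and 57.5% to 65.0%. Arrays lay on 8 slides, of which 7 held all 3 groups with 1 WT array each. Over the arrays, median red intensity and the share above background had Pearson correlations of -0.0020 and 0.052 with the mean of the 9 genes. Within groups they were 0.03 and 0.05 in WT, -0.74 and -0.23 in CR and 0.58 and 0.47 in CR-L, so the values over all arrays hide opposite signs, and the part of signal in the results was not tested. Of the markers of the labelled cells, 15 of 15 for T cells, 10 of 12 for B cells and 13 of 13 for monocytes were among the features tested, and so were 19 of 22 erythroid, 12 of 15 granulocyte and 10 of 14 endothelial markers, so the filter does not tell these cells apart. Before any group is compared, 2 arrays stand apart for the platelet genes. CR-L 3 had the lowest value of all 31 arrays in 9 of 9 genes, with a mean over the genes of -2.75. CR-L 7 was second lowest in 7 of 9, with a mean of -2.41. WT 7 was among the lowest 3 arrays in 9 of 9 genes, with a mean of -1.43, and the next in order were CR-L 11 (-1.06) and CR-L 9 (-0.89). At the other end stood CR-L 4, among the highest 3 in 9 of 9 genes with a mean of 0.83, and CR 3 with 0.74. All 9 genes were below the pool on 10 arrays, all 9 above it on 8 arrays, and on both sides of it on 13.

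**Figure D1:**
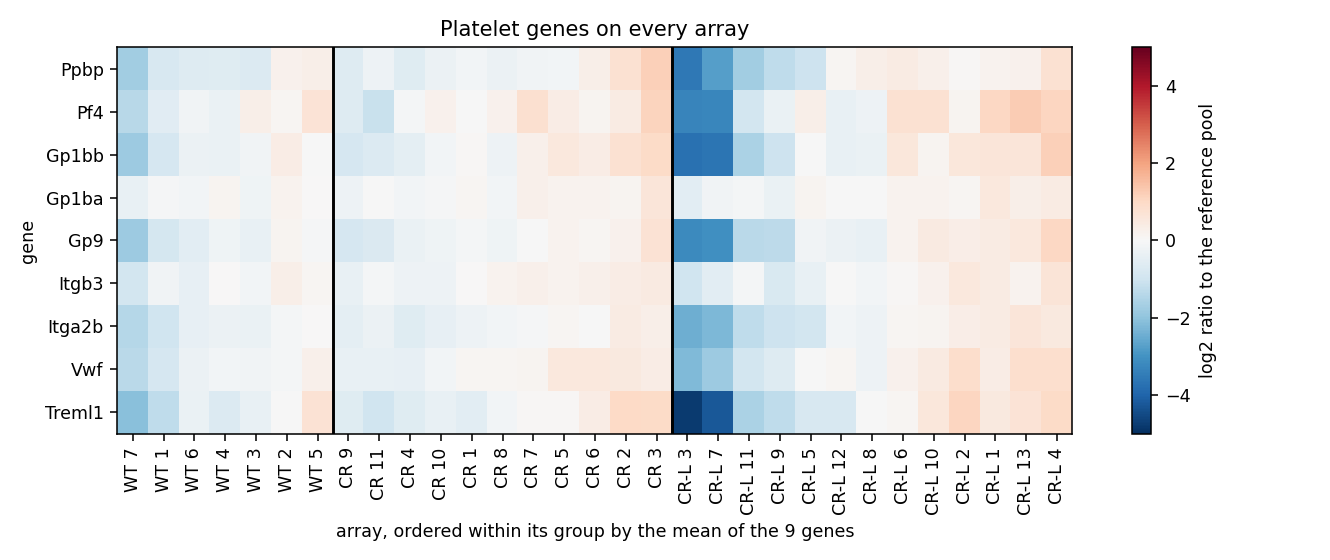
Log2 ratio to the reference pool (colour) of the 9 measured platelet genes (rows) on the 31 arrays (columns), which are grouped as WT, CR and CR-L and ordered within a group by the mean of the 9 genes. CR-L 3 and CR-L 7 are the darkest blue columns, and Gp1ba and Itgb3 change least along each row.

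For the genes below, the 250 bases before the annotated start are shown to set side by side the letters upstream of genes that moved together over the arrays. The sequences are RefSeq's on GRCr8, 5′ to 3′ on the gene's strand. Capitals mark GATAA (or its reverse TTATC), the core bound by GATA factors such as GATA1, and GGAAG (or CTTCC), a core bound by ETS factors such as FLI1. Both factors are known regulators of megakaryocyte genes. The table used held 7 of the 10 listed genes, without Pf4, Itgb3 and Vwf.
Itga2b: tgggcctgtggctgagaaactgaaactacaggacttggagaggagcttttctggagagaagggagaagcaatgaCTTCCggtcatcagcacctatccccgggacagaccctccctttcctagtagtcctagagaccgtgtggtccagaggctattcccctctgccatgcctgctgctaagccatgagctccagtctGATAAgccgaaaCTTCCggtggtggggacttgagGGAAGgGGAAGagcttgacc
Gp9: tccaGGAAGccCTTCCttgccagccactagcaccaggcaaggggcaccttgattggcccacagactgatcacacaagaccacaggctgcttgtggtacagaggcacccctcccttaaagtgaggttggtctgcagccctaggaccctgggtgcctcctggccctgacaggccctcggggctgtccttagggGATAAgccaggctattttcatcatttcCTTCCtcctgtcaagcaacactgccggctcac
Gp1ba: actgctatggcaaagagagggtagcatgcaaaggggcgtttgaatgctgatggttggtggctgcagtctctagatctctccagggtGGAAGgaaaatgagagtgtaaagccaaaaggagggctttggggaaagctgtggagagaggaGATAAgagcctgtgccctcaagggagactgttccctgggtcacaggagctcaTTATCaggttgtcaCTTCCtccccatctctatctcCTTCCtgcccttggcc
Treml1: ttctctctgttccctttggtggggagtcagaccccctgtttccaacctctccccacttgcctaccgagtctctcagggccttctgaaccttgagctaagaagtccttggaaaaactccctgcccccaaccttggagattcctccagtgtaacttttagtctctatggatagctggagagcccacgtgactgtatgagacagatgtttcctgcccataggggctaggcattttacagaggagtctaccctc
These windows lie at chr10:87925834-87926083 on the minus strand (Itga2b), chr4:121792592-121792841 on the plus strand (Gp9), chr10:55851309-55851558 on the plus strand (Gp1ba) and chr9:20139934-20140183 on the minus strand (Treml1). The Itga2b window holds 1 GATAA, with its first base 54 bases before the start, and 4 ETS cores, and no matches overlap in any of the windows. In Gp9 the only GATAA begins 59 bases before the start, and in Gp1ba there are 2, at 103 and 51 bases. The Treml1 window holds neither motif. Over the 7 windows, 4 had the GATA core, 6 the ETS core and 4 both, against 23.5%, 63.3% and 13.8% of all 33469 promoter windows of that length in the table. One of the 7, and of the 4 with both, is the window of Gp6, which was not measured on these arrays. A match describes letters and not a bound site.

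The GPIb-IX complex was measured through Gp1bb, Gp1ba and Gp9, which encode its beta chain, its alpha chain with the binding site for von Willebrand factor, and the small subunit GPIX. The Gp1bb probe (rn4 chr11:84370858-84370917, plus strand) read intensities from 6381 to 156149 in red. Its ratio lay between -1.83 and 0.38 in WT (median -0.30), between -0.83 and 0.96 in CR (median 0.06) and between -3.75 and 1.19 in CR-L (median -0.03). The groups overlapped over most of their range, and the 2 lowest CR-L arrays lay below every other array. The Gp1bb gene overlaps Septin5 in the annotation, and the ratios of both correlated over the 31 arrays (r = 0.770, Spearman's rho 0.839). RNA that runs through both genes cannot be told apart by this probe, so the level of Gp1bb is uncertain to that extent.

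Gp9 (rn4 chr4:121967070-121967129, plus strand) followed the same order. Its ratio ran from -1.82 to 0.13 in WT (median -0.37), from -0.83 to 0.72 in CR (median -0.08) and from -3.17 to 1.03 in CR-L (median -0.17). The lowest and highest arrays of each group were those of Gp1bb. Gp1ba (rn4 chr10:57521257-57521316, plus strand) had a dim probe, with a median red intensity of 122 against a local background of 28, which was well above background on 30 of 31 arrays. Its ratio lay between -0.39 and 0.18 in WT, -0.24 and 0.60 in CR and -0.54 and 0.54 in CR-L. The lowest CR-L value is that of CR-L 3, the array on which the probe was not well above background, so it is a bound only. The same arrays were lowest for Gp1ba as for Gp9 in all 3 groups, and over the other 30 arrays Gp1ba covered 1.98-fold. An offset of 50 was added to both channels in processing, which draws the ratios of dim probes toward 0. It narrows the range of Gp1ba to an extent that was not tested.

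Vwf, von Willebrand factor, is the ligand of the complex and is made by megakaryocytes and by endothelial cells. It had 2 probes, whose sequences are given because they disagree in size of change.
Vwf probe A_43_P15902: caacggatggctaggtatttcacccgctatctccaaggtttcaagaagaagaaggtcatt
Vwf probe A_44_P1025918: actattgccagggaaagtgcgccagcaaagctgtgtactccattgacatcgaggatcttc
The first (rn4 chr4:161809533-161809592, plus strand) lies 44404 bases upstream of the other in the genome and was dim, at a median red intensity of 109. The other (rn4 chr4:161853997-161854486) has a span of 490 bases for its 60 letters, so it crosses an intron, and it stood for the gene at a median of 6485. Their ratios correlated with r = 0.581 (rho 0.647) and had SDs of 0.16 and 0.72 over the arrays. The offset named above narrows the SD of the dim probe more than that of the other. With the brighter probe, Vwf ranged from -1.35 to 0.27 in WT (median -0.16), -0.40 to 0.54 in CR (median 0.09) and -2.19 to 0.86 in CR-L (median 0.11). WT 7, CR-L 3 and CR-L 7 were again lowest.

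Integrin alpha-IIb beta-3 is encoded by Itga2b and Itgb3. Itga2b is largely restricted to the megakaryocyte lineage, while the beta-3 chain also pairs with another alpha chain in other cells. Itga2b (rn4 chr10:91560991-91561050, minus strand) spanned -1.42 to 0.02 in WT (median -0.34), -0.60 to 0.40 in CR (median -0.12) and -2.44 to 0.59 in CR-L (median -0.13). Of the WT arrays only WT 5 reached the level of the pool. Itgb3, whose probe has no position in the files, spanned -0.91 to 0.28 in WT (median -0.15), -0.36 to 0.46 in CR (median 0.16) and -1.0 to 0.66 in CR-L (median -0.04). The 3 groups overlapped for both chains, and Itgb3 covered 3.16-fold against 8.17-fold for Itga2b. The Itgb3 probe was dimmer, with a median red intensity of 315 against 5027, and the offset narrows its range more. The 2 ranges thus do not compare the genes alone.

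The granule chemokines were Pf4 (platelet factor 4, CXCL4) and Ppbp (pro-platelet basic protein, the precursor of CXCL7). Their genes are neighbours, and the probes lie 3824 bases apart on the minus strand (rn4 chr14:18812555-18812614 for Pf4 and chr14:18816439-18816498 for Ppbp). The probes are shown since related genes can share target letters; capitals mark their longest common stretch, and 50 of the 60 bases are printed for Ppbp.
Pf4 probe: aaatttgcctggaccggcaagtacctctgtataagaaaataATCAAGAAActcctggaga
Ppbp probe: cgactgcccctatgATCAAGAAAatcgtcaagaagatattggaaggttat
The common stretch was 9 bases, and none of the 55 pairs of probes of the 9 genes shared a longer one. Pf4 ranged from -1.38 to 0.67 in WT (median -0.18), -1.11 to 1.11 in CR (median 0.20) and -3.29 to 1.28 in CR-L (median 0.13). CR-L 3 and CR-L 7 had nearly the same low value (-3.29 and -3.27), and the next lowest array was WT 7. Ppbp ranged from -1.72 to 0.29 in WT (median -0.66), -0.66 to 1.19 in CR (median -0.19) and -3.56 to 0.77 in CR-L (median 0.11). Below the level of the pool lay 5 of 7 WT arrays, 8 of 11 CR arrays and 5 of 13 CR-L arrays. Among the other CXC chemokines measured that bind CXCR2 on neutrophils, Cxcl1, Cxcl2 and Cxcl3 had r of -0.25, -0.39 and -0.29 with Pf4, and Cxcl6 had 0.55, where Ppbp had 0.874.

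Treml1 encodes TLT-1, a receptor of the alpha granule membrane that reaches the surface on activation. Its brighter probe (rn4 chr9:8018241-8018300, minus strand) ranged from -2.07 to 0.71 in WT (median -0.35), -1.01 to 1.00 in CR (median -0.12) and -4.80 to 1.08 in CR-L (median -0.03). From CR-L 3 to CR-L 2 that is 58.7-fold, both arrays being of 1 group. The other probe, whose 471-base span also crosses an intron, correlated with it at r = 0.978 (rho 0.974), with an SD of 0.83 against 1.34.

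**Figure D2:**
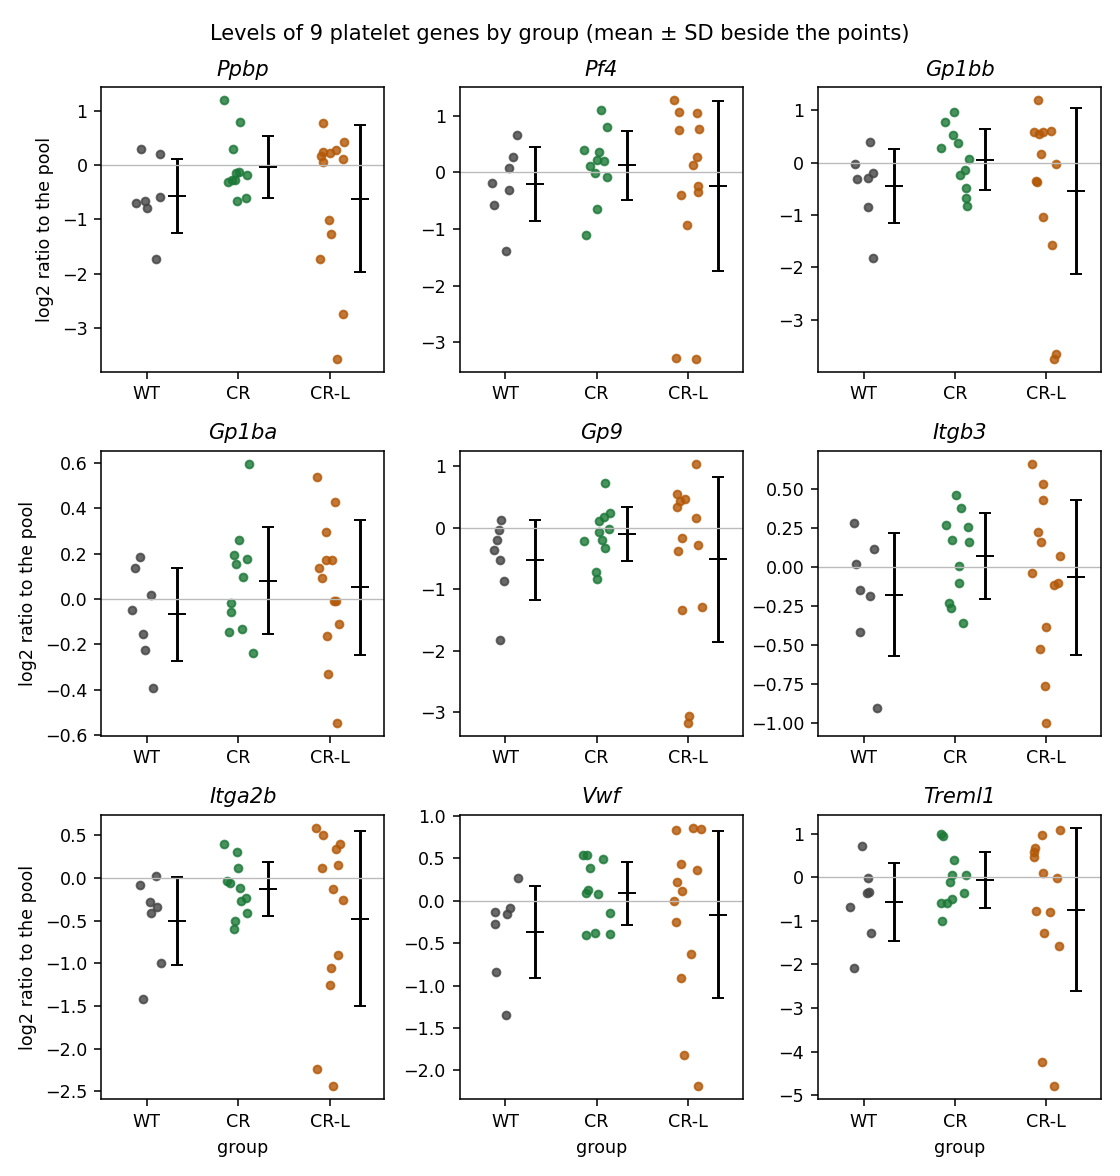
Log2 ratio to the pool (vertical axis) of each gene in WT (7 arrays), CR (11) and CR-L (13), 1 point per array, with the group mean and SD beside the points; vertical axes differ between panels. In every panel the groups overlap and CR-L has the widest spread, with 2 arrays far below the others for Ppbp, Pf4, Gp1bb, Gp9 and Treml1.

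The spread over arrays was large for these genes, and the offset lowers it for the dim probes of Gp1ba and Itgb3. The SD of the log2 ratio was 1.34 for Treml1, the 12th largest of 22066 features, 1.14 for Gp1bb, 1.07 for Pf4, 1.00 for Ppbp, 0.95 for Gp9, 0.73 for Itga2b, 0.72 for Vwf, 0.40 for Itgb3 and 0.26 for Gp1ba, against a median of 0.14 over all features. The green channel held the same pool on each array. After loess and scaling of mean intensities between arrays, its log2 SD was between 0.05 (Gp9) and 0.20 (Treml1) for 8 of the 9 and 0.38 for Pf4. The Pf4 intensity of the pool as scanned, before these steps, ran from 38547 to 131434. On the log2 scale the red channel of Pf4, processed like the green, had an SD of 0.73 where its ratio had 1.07. None of the spots of the 9 genes was saturated in red, and saturation in green was not counted.

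The 9 genes rose and fell together from array to array. Pearson's r over the 31 arrays was between 0.713 (Gp1ba with Treml1) and 0.986 (Gp1bb with Gp9) for the 36 pairs, with a median of 0.907, and Spearman's rho had a median of 0.863. Without CR-L 3 and CR-L 7, the arrays farthest from the median, r had a median of 0.855 (0.689 to 0.967). As deviations from slide means the median was 0.932 and from group means 0.911. Within WT, CR and CR-L it was 0.90, 0.846 and 0.940. A single component held 89.8% of the variance of the 9 scaled genes. Gp9 followed the mean of the other 8 most closely (r = 0.988, with 0.973 without the 2 arrays) and Gp1ba least (0.787, with 0.824). These correlations are given as a description without p, because the genes were listed as one class.

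**Figure D3:**
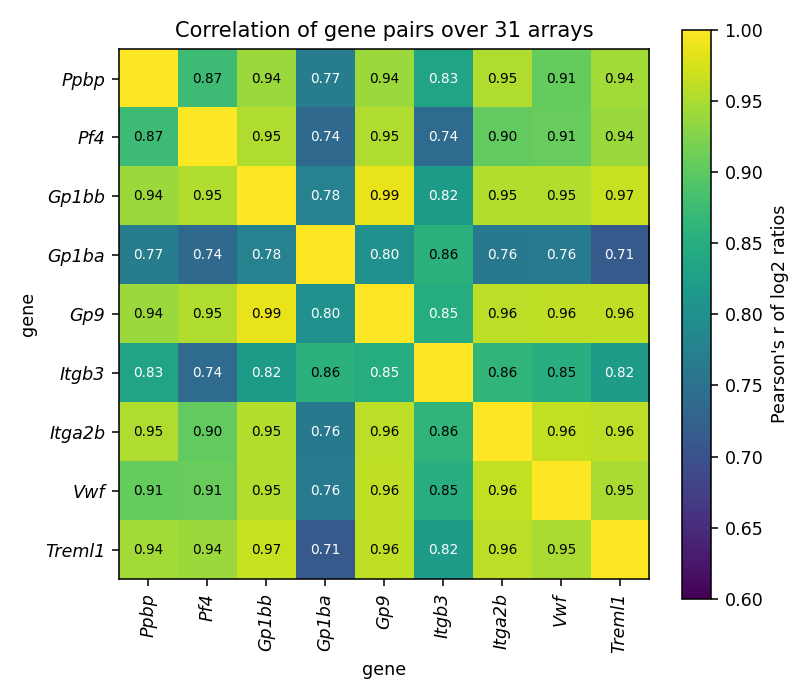
Pearson's r (colour and figures) between the log2 ratios of each pair of the 9 platelet genes over 31 arrays. The lowest values are in the rows of Gp1ba and Itgb3, and the pair of Gp1bb and Gp9 has the highest, 0.986.

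Offspring of restricted dams were compared with WT to ask what the restriction leaves in adult blood cells. No platelet gene passed the test between CR and WT: 0 of 9 at an adjusted p under 0.05 (limma, Benjamini-Hochberg over 22066 features), where 0.476% of all features did, and 0 of 9 at an unadjusted p under 0.05, where 12.4% did. All 9 differences were above 0, as were 55.5% of all features, with a median of 0.42 against 0.01 over all features. The 9 differences are not independent of each other, given the correlations above. Ppbp had the largest difference, 0.54 ± 0.45 (SE), which is 1.45-fold (-0.03 ± 0.57 in CR, SD, n = 11, and -0.57 ± 0.68 in WT, n = 7; adjusted p = 0.684 by limma). Treml1 differed by 0.51 ± 0.61 and Gp1bb by 0.50 ± 0.52. Vwf, at 0.45 ± 0.33, had the smallest adjusted p of the 9 (0.627 by limma). Every 95% interval held 0, and that of Ppbp ran from -0.38 to 1.46. Within slides, the mean of the 9 genes was higher in CR on 6 of 7 slides (-0.02 to 1.06, median 0.42). Without WT 7 the median difference was 0.22, and without WT 6 it was 0.42. The dim Vwf probe differed by 0.14 ± 0.07, with an adjusted p of 0.421 by limma.

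CR-L against WT, which asks whether supplemented offspring differ from controls, gave 0 of 9 genes at an adjusted p under 0.05 (limma; 3.54% of all features) and 0 of 9 at an unadjusted p under 0.05 (16.7%). Differences were above 0 for 5 genes and below for 4, with 55.2% of all features above, and with median centring of the arrays in place of loess all 9 were above 0. Their median was 0.01, from -0.16 ± 0.59 (SE) for Treml1 to 0.20 ± 0.32 for Vwf, and the adjusted p values were 0.670 to 0.993. On 3 of 7 slides the mean of the 9 genes was higher in CR-L (-1.08 to 1.18).

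The effect of the supplement itself is the comparison of CR-L with CR. Again 0 of 9 genes passed at an adjusted p under 0.05 (limma; 0% of all features), with 0 of 9 at an unadjusted p under 0.05 (2.33%). All 9 differences were below 0, as were 52.1% of all features, with a median of -0.37 against -0.0027 over all features, and all 9 adjusted p values were 0.9997. Treml1 had the largest, -0.67 ± 0.52 (SE), followed by Gp1bb with -0.60 ± 0.44 and Ppbp with -0.59 ± 0.38. The mean of the 9 genes was lower in CR-L on 6 of 8 slides. These comparisons share their arrays in pairs, so their signs are not independent of each other.

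The difference between CR-L and CR was not seen when both CR-L 3 and CR-L 7 were left out. The mean of the 9 genes was -0.38 ± 0.56 (SD, n = 7) in WT, 0.01 ± 0.41 (n = 11) in CR and -0.37 ± 1.13 (n = 13) in CR-L, and 0.03 ± 0.61 (n = 11) in CR-L without those arrays. Without them the median difference moved from -0.37 to 0.01 for CR-L against CR, with 5 of 9 genes above 0, and from 0.01 to 0.47 for CR-L against WT, with 9 of 9 above 0. No gene passed at an adjusted p under 0.05 by limma there either. The arrays were picked by the very values compared, so these figures are a description. With WT 7 left out too, the median differences were 0.22 for CR and 0.24 for CR-L against WT.

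**Figure D4:**
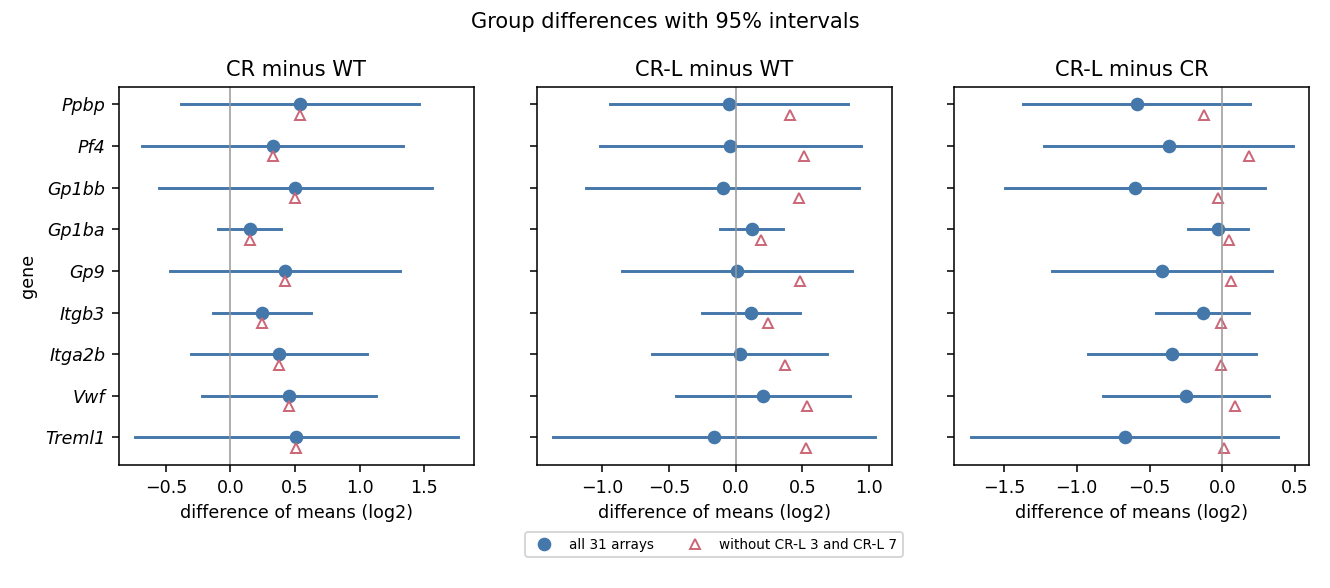
Difference of group means in log2 ratio (horizontal axis) for each gene in the 3 comparisons, with 95% intervals from limma over 31 arrays (circles and lines) and the estimate without CR-L 3 and CR-L 7 (triangles). Every interval holds 0, and the triangles move to the right in both comparisons with CR-L.

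Other genes of platelets were taken from 4 lists by role (62 tested), with 5 genes that lie beside or overlap a member. None of these 67 passed at an adjusted p under 0.05 by limma in any comparison. Among all features, 0.476% passed in CR against WT, 3.54% in CR-L against WT and 0% in CR-L against CR. The counts of listed genes above 0 stand beside 55.5% of all features in CR against WT, 55.2% in CR-L against WT and 47.9% in CR-L against CR. Of the receptors and surface proteins, 17 of 21 listed were tested, and 15 of the 17 were above 0 in CR against WT (median 0.21), 15 in CR-L against WT (median 0.09) and 3 in CR-L against CR (median -0.06). Differences of single genes from these lists are given for CR against WT. Gp5, the remaining subunit of the GPIb complex, differed by 0.47 ± 0.37 (SE), P2ry12, the ADP receptor, by 0.49 ± 0.44, and Clec1b, the podoplanin receptor, by 0.49 ± 0.52. Pear1 was at an unadjusted p of 0.0453 (0.27 ± 0.13, adjusted p = 0.388 by limma). It was 1 of 17 receptors at an unadjusted p under 0.05 by limma, where 12.4% of all features were. The adhesion proteins Cd226 and Itgb1 differed by 0.42 ± 0.31 and 0.21 ± 0.13, and the thromboxane receptor Tbxa2r by 0.16 ± 0.09. Cd36, a receptor that monocytes share, differed by -0.08 ± 0.16 and had r = -0.31 with the mean of the 9 genes.

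Granule cargo was tested through 11 of 17 listed genes, 9 of them above 0 in CR against WT (median 0.35). Sparc, which other cells also make, was at an unadjusted p of 0.0238 (0.35 ± 0.15, adjusted p = 0.306 by limma) with r = 0.35. It was 1 of 11 cargo genes at an unadjusted p under 0.05 by limma, where 12.4% of all features were. The serotonin transporter Slc6a4 differed by 0.40 ± 0.22 and Angpt1 by 0.44 ± 0.29. Mmrn1, the carrier of factor V, differed by 0.50 ± 0.51, F13a1 by 0.30 ± 0.36 and Thbs1 by 0.20 ± 0.16. Of the 11, 7 were above 0 in CR-L against WT (median 0.07) and 2 in CR-L against CR (median -0.24).

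For signalling, cytoskeleton and enzymes, 25 of 26 listed genes were tested, with 22 above 0 in CR against WT (median 0.10), 11 in CR-L against WT (median -0.0089) and 2 in CR-L against CR (median -0.10). In CR against WT, Myl9, a myosin light chain, differed by 0.55 ± 0.61 and the G-protein regulator Rgs18 by 0.28 ± 0.35. Rasgrp2, Fermt3, Fyb1 and Lat, which lymphocytes also use, differed by 0.10 ± 0.11, 0.08 ± 0.06, 0.09 ± 0.08 and 0.09 ± 0.06. Among transcription factors, 9 of 10 were tested and 6 were above 0 in CR against WT (median 0.03), 7 in CR-L against WT and 5 in CR-L against CR. Between CR and WT, Nfe2, needed for platelet release, differed by 0.34 ± 0.28, Tal1 by 0.22 ± 0.20 and Gata1 by 0.09 ± 0.16. Zfpm1, Gfi1b and Runx1 differed by 0.13 ± 0.09, -0.04 ± 0.15 and -0.10 ± 0.06. Septin5, beside Gp1bb, differed by 0.29 ± 0.24, and 4 chemokine genes near Pf4 by -0.32 ± 0.56 (Cxcl2), -0.25 ± 0.23 (Cxcl3), -0.17 ± 0.44 (Cxcl1) and 0.08 ± 0.10 (Cxcl6).

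Over the arrays, many of these genes tracked the 9. Of the 62 in the role lists, 29 had r of at least 0.8 with the mean of the 9 genes and 40 at least 0.5, and over all 22057 features other than the members 409 and 1087 did. By list, r of at least 0.8 was reached by 8 of 17 receptors, 8 of 11 cargo genes, 11 of 25 signalling genes and 2 of 9 transcription factors (Tal1 with 0.947 and Nfe2 with 0.906; Gata1 had 0.711 and Runx1 -0.51). At r of at least 0.9 there were 198 features. The 20 nearest with an established symbol were Ptgs1 (r = 0.987), Slc24a3, Pla1a, Pdlim1, Myl9, Reep2, Syt5, Gas2l1, Clu, Ltbp1, Tmem117, Bgn, Gmpr, P2ry12, Nrgn, Pla2g2a, F2rl2, Cald1, Tsc22d1 and Lgalsl (0.971), all measured on the same 31 arrays. Ptgs1 is cyclooxygenase 1, which makes the precursor of thromboxane in platelets, and its ratio was -0.77 ± 0.74 (SD, n = 7) in WT, -0.29 ± 0.52 (n = 11) in CR and -0.85 ± 1.75 (n = 13) in CR-L.

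Markers of other cells are given beside the platelet genes, as list means over the arrays. Erythroid markers (19 of 22 tested) had r = -0.014 with the mean of the 9 genes, T cell markers (15 of 15) 0.033 and B cell markers (10 of 12) -0.018. Within WT, CR and CR-L the erythroid r was -0.60, -0.38 and 0.24, so the value over all arrays hides opposite signs. Granulocyte markers (12 of 15) had -0.239, with Fcgr3a strongest at -0.56. NK and cytotoxic markers (10 of 13) had -0.383, and -0.019 without CR-L 3 and CR-L 7. Within WT, CR and CR-L the NK and cytotoxic r was -0.04, 0.34 and -0.65. Monocyte markers (13 of 13) had -0.492 (rho -0.349), and -0.265 without CR-L 3 and CR-L 7. Within WT, CR and CR-L the monocyte r was -0.75, -0.06 and -0.53. Clec4a3 (-0.59) and Cebpb (-0.57) were the strongest monocyte markers. The monocyte list means ranged from -0.20 to 0.33 in WT, -0.42 to 0.23 in CR and -0.57 to 0.47 in CR-L. Endothelial markers (10 of 14 tested) had r = 0.604 (rho 0.727), and 0.618 without the 2 arrays. That list shares Esam (r = 0.793), and platelets also carry Pecam1; without both, 8 markers had r = 0.398. The list means ran from -0.10 to 0.08 in WT, -0.04 to 0.15 in CR and -0.10 to 0.21 in CR-L, and the median r of its single genes was 0.06. In CR against WT 5 of the 10 were above 0 and 3 were at an unadjusted p under 0.05 by limma (55.5% and 12.4% of all features). In CR-L against WT these were 6 and 5 (55.2% and 16.7% of all features). None passed at an adjusted p under 0.05 by limma. Kdr was well above background on all 31 arrays, had r = 0.50 and differed between CR and WT by 0.72 ± 0.21 (SE; unadjusted p = 0.00178, adjusted p = 0.106 by limma). Cldn5, Emcn, Tek and Nos3 did not pass the filter on dim probes. Among erythroid markers, Rhag stood alone at r = 0.69. The part of other cells in the platelet results was not tested.

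Several of these lists lay mostly on one side of 0, and no marker passed at an adjusted p under 0.05 by limma. Of all features, 55.5% were above 0 in CR against WT, 55.2% in CR-L against WT and 47.9% in CR-L against CR. In CR against WT, where all 9 platelet genes were above 0, 1 of 10 B cell markers was (median -0.15), 1 of 12 granulocyte (-0.22), 2 of 13 monocyte (-0.17) and 3 of 19 erythroid markers (-0.19), but 12 of 15 T cell (0.05) and 8 of 10 NK and cytotoxic markers (0.05). In CR-L against WT, 0 of 10 B cell markers were above 0 (median -0.27), and 17 of 19 erythroid markers were (median 0.23). Of these B cell markers 5 were at an unadjusted p under 0.05 by limma, as were 16.7% of all features. In CR-L against CR, where all 9 platelet genes were below 0, 16 of 19 erythroid markers were above it (median 0.61). Of the 19, 3 were at an unadjusted p under 0.05 by limma, as were 2.33% of all features. Erythroid list means ranged from -0.95 to 0.06 in WT, -1.55 to 0.68 in CR and -1.79 to 1.24 in CR-L, so the groups overlapped widely.

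**Figure D5:**
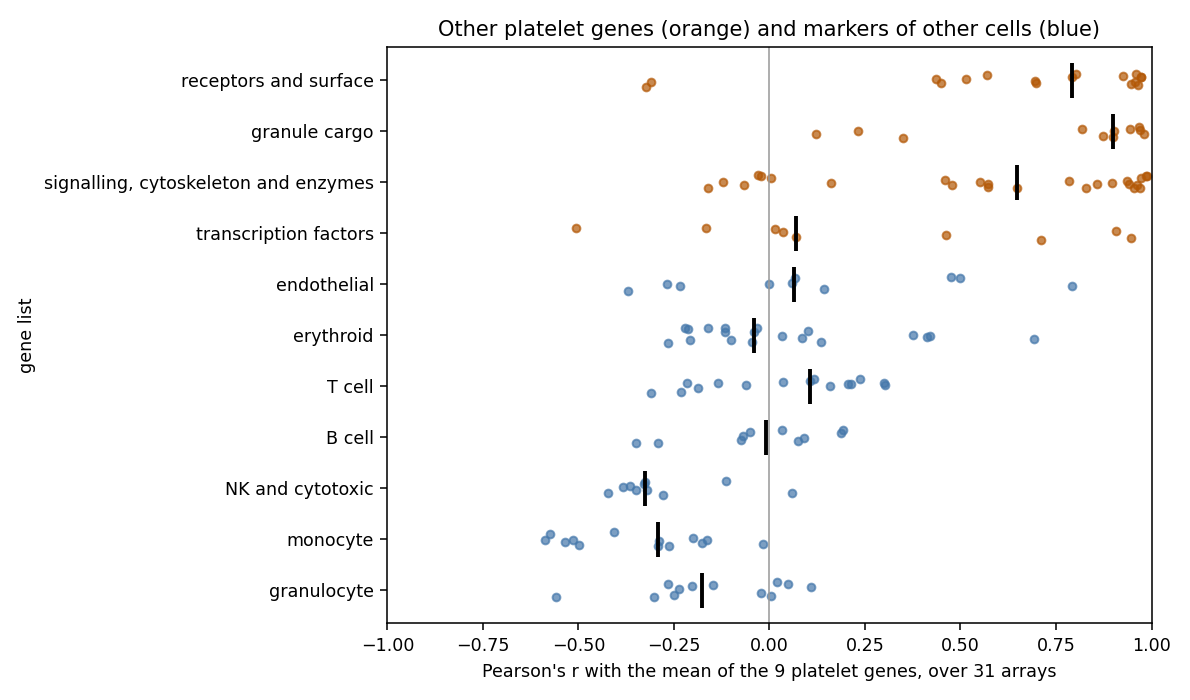
Pearson's r over 31 arrays (horizontal axis) of single genes with the mean of the 9 platelet genes, by list (rows); orange points are other platelet genes, blue points are markers of other cells, and black bars are list medians. Medians are 0.79 for receptors, 0.90 for granule cargo and 0.65 for signalling genes, and between -0.33 and 0.11 for the transcription factors and the markers of other cells.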

How the data were processed

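RNA of 31 rat PBMC samples was measured on Agilent 2-colour arrays against 1 reference pool of equal parts of RNA, with no dye swap, per the labels' protocols. The authors deposited scanner files with spot intensity and a log10 ratio per the file headers, extracted with Agilent Feature Extraction 10.7.3.1 per the submitters' processing notes. A series table with log2 values was also deposited; it follows the red channel, every column has a median of 8.17, and the steps behind it are not given in the sources used here. Mean intensities were corrected by normexp (offset 50) and loess within arrays in limma 3.58.1 (R 4.3.3). Control spots (1639 of 45018) and outlier spots (0.408% of values) were left out, probes well above background in red on at least 7 arrays were kept (26721), and the brightest probe stood for each symbol. Probes were named through RefSeq's GRCr8 table, used for names; positions are the files' rn4. Groups were compared by lmFit and eBayes over all arrays, as two-sided tests adjusted by Benjamini-Hochberg (threshold 0.05), and the fit was tested on simulated data. Alternatives were other background and dye corrections, the red channel alone, the series table, other filters, slide and replicate number as blocks, array weights and leaving out arrays; those without the 2 or 3 lowest arrays and the marker list without Esam and Pecam1 were chosen after seeing the data. Members and lists were chosen with earlier results of these data known. Named beside the 9 genes are up to 6 genes per related list with the smallest p, a few always named (Gata1, Nfe2, Tubb1, Gp5, Selp, Clec1b and Septin5 where tested; 1 more is not reported here), up to 2 markers per other list and the 20 features that correlate best. Markers of lists with no r beyond 0.5 are given as list values alone. Replicates are the labels' separate samples.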

Additional observations from a re-analysis of the deposited data

Results flagged for a closer look

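No platelet gene had a WT array that stood apart by the gap test used for groups of 4 to 10 samples; CR and CR-L are larger and were not tested, so the low values of CR-L 3 and CR-L 7 rest on their ranks above. Of 17 measures checked in the 7 WT arrays, 1 stood apart: the mean of the B cell markers was -0.52 on WT 1, with 0.04 the nearest and 0.28 the highest of the others. Chance flags about 1 in 20 groups.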

How the results depend on the processing

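No platelet gene passed an adjusted p under 0.05 by limma in any comparison under any of the 45 alternatives. The alternative that scaled mean intensities between arrays (Aquantile) leaves the log ratios unchanged, so it only repeated the main fit. At an unadjusted p under 0.05 by limma, 1 of the 9 genes (Vwf) passed in CR-L against WT without CR-L 3 and CR-L 7. Without those arrays 3799 of the 22066 features passed in that comparison, and the arrays were picked by the values compared. In the other settings 0 of the 9 genes passed. The median difference of the 9 genes kept its sign in CR against WT throughout. With single arrays left out that median was between 0.22 (without WT 7) and 0.50 for CR against WT, -0.20 and 0.19 for CR-L against WT, and -0.49 and -0.18 (without CR-L 3) for CR-L against CR. In CR-L against WT, where the differences lie near 0, several genes crossed 0, all without passing the threshold, and the cause was not tested. The Agilent log ratio gave 0.0082 for Pf4 and -0.014 for Gp9. Median centring gave 0.12 for Ppbp, 0.15 for Pf4, 0.096 for Gp1bb and 0.034 for Treml1. For Gp9 the red channel alone gave -0.039, the slide as a fixed block -0.043 and array weights -0.086; the slide block gave -0.073 for Itga2b. Without CR-L 3 and CR-L 7 the differences from WT were 0.41 for Ppbp, 0.51 for Pf4, 0.47 for Gp1bb and 0.52 for Treml1, and without WT 7 as well 0.22, 0.31, 0.24 and 0.28. Against CR they were, under both, 0.18 for Pf4, 0.044 for Gp1ba, 0.060 for Gp9, 0.084 for Vwf and 0.014 for Treml1. With single arrays left out, the difference from WT ranged from -0.24 to 0.19 for Ppbp, -0.24 to 0.21 for Pf4, -0.33 to 0.17 for Gp1bb, -0.20 to 0.23 for Gp9, -0.0098 to 0.19 for Itgb3, -0.12 to 0.19 for Itga2b and -0.41 to 0.18 for Treml1, and that of Gp1ba from CR from -0.070 to 0.022.

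Replicate numbers showed little pairing of the samples by correlation. Over 25 pairs of arrays with the same number, deviations from group means had correlations of -0.43 to 0.45 (median 0.04), 7 of them over 0.1. Of 29 arrays, 3 correlated best with their own number. Whether equal numbers share a litter was not tested, since the labels give no litter per sample. With the replicate block, the median difference was 0.53 for CR against WT, -0.044 for CR-L against WT and -0.49 for CR-L against CR, no gene passed, Itga2b gave -0.044 in CR-L against WT, and the features called in CR against WT went from 105 to 224.

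The median correlation between the 9 genes stayed within the spread of the pairs under all alternatives. The correlation of their mean with endothelial markers was 0.404 in the authors' series table, and 0.398 without Esam and Pecam1. With monocyte markers it was -0.296 under median centring, -0.450 with a gene's probes averaged and -0.265 without the 2 arrays farthest from the median, and with NK and cytotoxic markers -0.497 as deviations from slide means. Correlations near 0 changed sign. Erythroid markers had 0.043 with the Agilent log ratio, 0.037 with median centring, 0.012 in the red channel alone, 0.034 from group means and 0.016 from slide means. T cell markers had -0.020 with the Agilent log ratio, -0.049 in the red channel alone and -0.123 from slide means. B cell markers had 0.0019, 0.068 and 0.152 with the Agilent log ratio, median centring and deviations from slide means. Median red intensity had 0.0027 where probes had to be above background on all arrays, and 0.041 from group means. The share of red spots above background had -0.032 with median centring, -0.0085 from slide means and -0.050 without the 2 arrays.

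The features called in CR against WT were 105, and 63 with the Agilent log ratio, 0 with median centring (2695 at an unadjusted p under 0.05 by limma), 33 in the red channel alone, 0 in the series table (2109), 180 with probes above background on all arrays and 398 with array weights; in CR-L against WT they were 781, and 75 with median centring and 481 in the series table. With single arrays left out, the CR against WT count was 17 without WT 4, 27 without WT 2 or WT 6, 28 without CR 8, 33 without CR 4, 40 without CR 3, 47 without CR 6, 49 without WT 5, 64 without CR 7, 65 without CR 5, 163 without CR 1, 187 without CR-L 10, 200 without CR-L 5 and 203 without CR 9; the CR-L against WT count was 422 without WT 4, 445 without WT 2 and 456 without WT 5. The rest lay within 1.5 times the counts on all arrays. Gp1ba, near background, left the fit where all arrays had to be above it. With the Agilent log ratio the smallest of the 9 differences in CR against WT was 0.35, where the main fit had 0.15. In CR-L against CR the difference nearest 0 went from -0.029 to -0.23.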
